A study of Mus musculus with 6 samples.

Results

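Mitochondrial ribosomal protein genes are the nuclear genes that encode the proteins of the mitochondrial ribosome, with symbols that begin with Mrpl for the large subunit and Mrps for the small subunit. The members were taken by symbol from the protein-coding genes of the GENCODE annotation of the mouse genome build GRCm39, and a member needed at least 10 estimated counts over the 6 libraries. All 78 matching symbols met this, 49 of the large and 29 of the small subunit, among 18506 genes that met it in all. The values come from bone marrow-derived macrophages (BMDMs) of LysM-Cre+/- Drp1 fl/fl mice (Drp1 KO) and of LysM-Cre+/- Drp1+/+ littermates (WT), with 3 libraries of each genotype. Both genotypes carried the LysM-Cre transgene, whose lysozyme M promoter is active in myeloid cells, and the mice were 8 to 12 weeks of age and of both sexes. On day 7 of culture all BMDMs were exposed to hypoxia with serum starvation (HSS) for 8 hours, at 2.1% oxygen per the labels, so no library shows cells outside HSS. The marrow came from 2 mice of each genotype and was pooled, and it is not stated whether each library came from a pool of its own, so the p-values below measure the spread between these libraries, part of which may be technical.

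The mitochondrial ribosome sits in the mitochondrial matrix and translates the mRNAs that the mitochondrial genome encodes, all of them for subunits of the respiratory chain and ATP synthase. Its RNAs come from mitochondrial DNA, but its proteins are made in the cytosol from nuclear genes spread over many chromosomes and are then imported. Many of them descend from bacterial ribosomal proteins, and the others are specific to mitochondria. DRP1, the product of Dnm1l, is the GTPase that divides mitochondria.

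Paired-end sequencing of poly(A) RNA gave libraries of 23389488 to 32231206 estimated counts. The targeted gene Dnm1l was at 72.7, 69.9 and 75.1 CPM (counts on a common library size) in WT libraries 1 to 3 and at 58.7, 60.7 and 66.3 CPM in Drp1 KO libraries 1 to 3. The Drp1 KO libraries all lay below the WT libraries. The smallest p that an exact two-sided permutation test can give with 3 against 3 is 0.1, which is the value here. In edgeR's test the difference did not pass (log2 fold change, log2 FC, -0.23 with a standard error, SE, of 0.092, adjusted p = 0.248). The counts do not show from which exons the reads came, so the deleted exons were not read separately. All 10 macrophage markers were present, with summed levels of 16790 to 18400 CPM in WT and 14740 to 16960 CPM in Drp1 KO libraries, sums in which Lyz2 weighs most. Of these 10, Fcgr1 rose (log2 FC 1.34) and Csf1r, Mrc1 and Mertk fell (-0.52, -0.42 and -0.52), with adjusted p of 0.000322, 0.0340, 0.0408 and 0.0236 (edgeR). Of 9 neutrophil markers 6 were measured and each had a higher mean in Drp1 KO BMDMs, with summed levels of 6.81 to 21.1 CPM in WT and 20.5 to 48.3 CPM in Drp1 KO libraries. None passed the test without pairing, and S100a8, S100a9, Ltf and Ngp rose in the fit paired by library number (adjusted p of 0.00146, 7.84e-05, 0.0194 and 0.00264, edgeR), while Ly6g, Elane and Retnlg were below the count minimum. Summed levels reached 63.1 CPM for dendritic cell markers, nearly all of it Itgax, 4.05 CPM for lymphocyte markers and 3.06 CPM for fibroblast markers in any library. The part of these cells in the differences below was not tested, and in such bulk samples fewer cells of a type and less RNA per cell cannot be told apart.

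The start regions of the members were read from GRCm39, to show what DNA lies at the starts of genes on separate chromosomes that serve 1 complex. In the window from 250 bases before to 50 bases after the start of the main (canonical) transcript, 3 exact strings were searched on both strands: CCGGAAGT, the core bound by ETS factors, CGCATGCG, the core bound by NRF1, and AAGATGGCG, the core bound by YY1. The ETS string lay in 11 of 78 member windows (14.1%) and in 4.35% of the windows of all 21770 protein-coding genes. The NRF1 string lay in 5 member windows (6.41%, against 2.59% of all genes) and the YY1 string in 4 (5.13%, against 1.34%). Together 20 members (25.6%) held 1 of the strings, against 7.85% of all genes, and in no member did matches overlap. Such a match is a description of letters, not of binding. The matches of 6 of the 20 members are shown as examples of the 3 strings, with 10 bases on either side, on the strand that carries the string, which is in capitals. The 6 are among the members whose levels or fold changes are described below, and they were picked after those values were seen.
Mrps22 (ETS, chr9:98483726-98483753, minus strand): acctctcgagCCGGAAGTtgctctatcg
Mrps26 (ETS, chr2:130405652-130405679, minus strand): tgcgcccggcCCGGAAGTggccgcggag
Mrpl52 (ETS, chr14:54664357-54664384, minus strand): agcaagggaaCCGGAAGTgggcgtggcc
Mrpl32 (NRF1, chr13:14787691-14787718, plus strand): gcccctcttgCGCATGCGcaagggtcaa
Mrpl36 (YY1, chr13:73479087-73479115, minus strand): gccaggaagaAAGATGGCGtaaggtcacg
Mrpl42 (YY1, chr10:95337766-95337794, minus strand): agattgaagcAAGATGGCGagcgcgcggt

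The median log2 FC was 0.10 for the 20 members with a string and 0.10 for the 58 without. In 14 members (17.9%, against 5.05% of all genes) another protein-coding gene started on the opposite strand within 1000 bases upstream, head to head. One such pair joins the subunits: Mrps11 and Mrpl46, on chromosome 7, start with 29 bases between them. That stretch is shown because it is the whole distance between a small and a large subunit gene.
Mrps11 to Mrpl46 (chr7:78432838-78432866, plus strand): ccatgaggcaacgcgggccggcgaggggc
Mrps11 and Mrpl46 had log2 FC of 0.20 and 0.21 (SE 0.183 and 0.143), and neither passed the test. The 2 members that passed edgeR's test at an adjusted p under 0.05, Mrpl30 and Mrpl1, held none of the 3 strings in the windows of their main transcripts. The bases just before those starts are shown, up to 150 or to the first annotated exon. These windows do not cover every start. Mrpl30-206, the Mrpl30 transcript of highest level, starts 2456 bases downstream, and neither of the 2 measured Mrpl1 transcripts is the main one. Other starts were not searched. Mrpl30 starts head to head with Mitd1, with 60 bases between the starts.
Mrpl30 (chr1:37929498-37929557, plus strand): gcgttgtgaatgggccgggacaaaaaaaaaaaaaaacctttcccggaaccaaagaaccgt
Mrpl1 (chr5:96356996-96357145, plus strand): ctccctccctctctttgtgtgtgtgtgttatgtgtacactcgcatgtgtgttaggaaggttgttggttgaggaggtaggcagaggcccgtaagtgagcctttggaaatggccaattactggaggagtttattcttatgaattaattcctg

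All 78 members were transcribed at moderate levels, and 4 of them stood above 100 TPM, a unit that takes transcript length into account and lets genes be compared. The mean over the 6 libraries ran from 4.99 TPM for Mrpl36 to 230.2 TPM for Mrpl52, with a median of 17.1 TPM, against a median of 4.32 TPM over all genes tested. The medians of the subunits were alike, at 18.6 TPM for the large and 16.2 TPM for the small subunit. Mrpl52, a protein specific to mitochondria, was at 213 ± 16.8 TPM in WT and 247 ± 57.7 TPM in Drp1 KO BMDMs (SD, n = 3 each). Mrps21, a small subunit protein with a bacterial counterpart, followed at 176 ± 11.9 TPM and 146 ± 0.204 TPM, and the next small subunit member, Mrps14, was at 53.2 ± 2.2 TPM and 60.3 ± 6.76 TPM. Mrpl30 was at 83.6 ± 7.04 TPM and 134 ± 4.31 TPM, and Mrpl18, whose bacterial counterpart binds 5S rRNA, at 111 ± 3.13 TPM and 98.9 ± 13.0 TPM. Mrpl18 was also the member with the most counts, at 85.5 ± 4.04 CPM in WT against 81.7 ± 8.20 CPM in Drp1 KO BMDMs.
At the low end, Mrpl36 was at 5.23 ± 0.709 TPM in WT and 4.76 ± 0.398 TPM in Drp1 KO BMDMs, and Mrpl38 at 5.18 ± 1.11 TPM and 5.32 ± 0.678 TPM. Mrps28, related to the bacterial protein that takes hold of mRNA, was at 5.41 ± 0.433 TPM and 5.39 ± 0.745 TPM, and Mrps6 at 6.51 ± 0.446 TPM and 5.79 ± 0.388 TPM. These 4 neighbours in the order did not differ beyond the SD of their libraries within WT, except that Mrps6 lay above the other three by more than 1 SD of each. Mrpl47 was at 6.94 ± 0.944 TPM and 8.08 ± 2.17 TPM, and Mrps35 at 6.23 ± 1.63 TPM and 7.48 ± 2.76 TPM, with spreads that overlapped those of their neighbours. Across the 78 members the level was not related to the fold change between genotypes (Spearman's rho -0.056 across genes, which are not independent replicates). The level in TPM was lower where transcripts were longer (rho -0.32). TPM divides counts by transcript length, so part of this second relation is built into the unit.

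**Figure D1:**
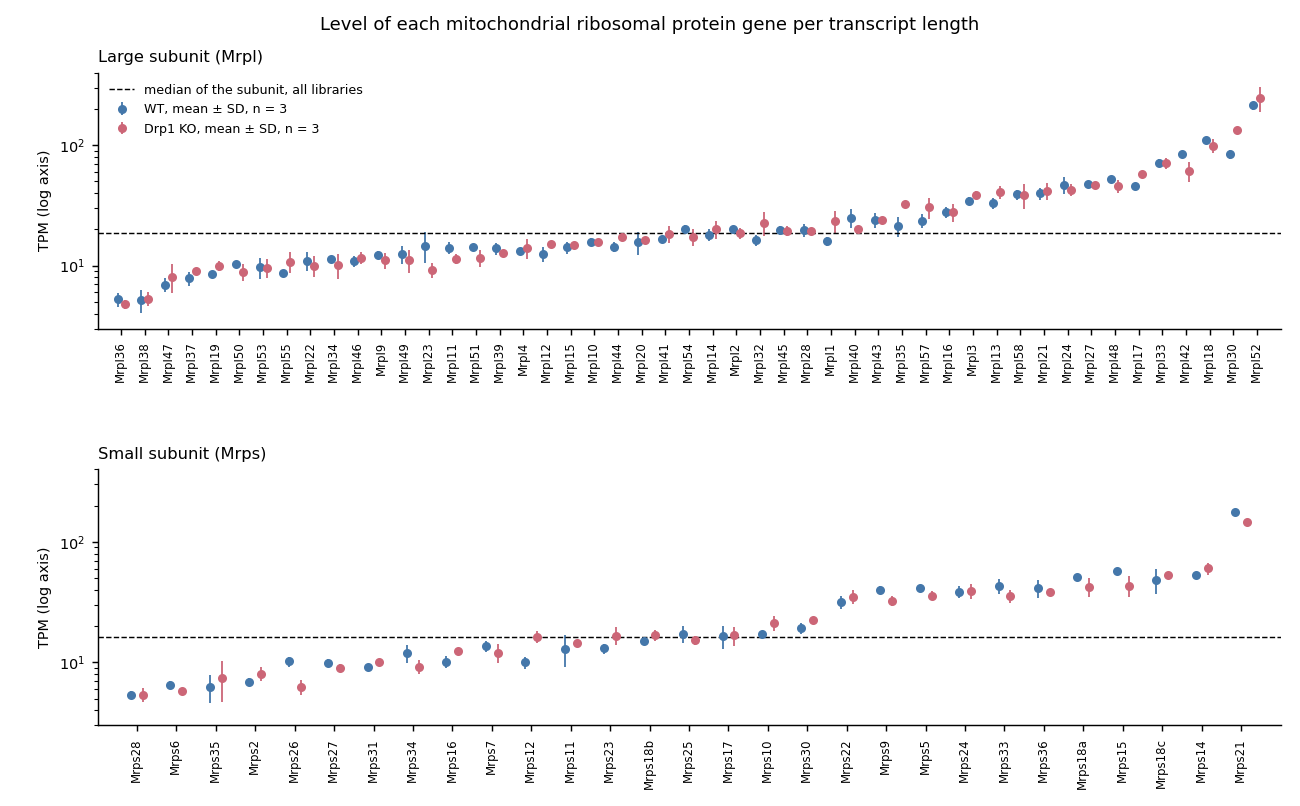
Mean TPM ± SD (vertical log axis, n = 3 libraries) of each member in WT and Drp1 KO BMDMs, with the large subunit above and the small subunit below, ordered by the mean over all libraries. Most members lie near the dashed medians of 18.6 and 16.2 TPM, and Mrpl52, Mrpl30, Mrpl18 and Mrps21 stand above the others of their subunit.

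The comparison of Drp1 KO with WT BMDMs asks what the loss of myeloid DRP1 does to these transcripts under HSS. More members were higher than lower in Drp1 KO BMDMs, by small amounts. Of the 78 members 52 (66.7%) had a log2 FC above 0 and 26 one below 0, against 50.6% above 0 among all genes tested, and the median log2 FC was 0.10 against 0.00 over all genes (quartiles -0.07 and 0.24 for the members, -0.22 and 0.23 for all genes). The range ran from -0.55 (Mrps26) to 0.60 (Mrpl1). The libraries of a genotype differed in this: relative to the WT mean, the median member was at 0.11, 0.20 and -0.0033 on the log2 scale in Drp1 KO libraries 1, 2 and 3, and at 0.06, -0.03 and -0.02 in WT libraries 1, 2 and 3. Drp1 KO library 3 therefore lay within the range of the WT libraries. Taken between libraries of the same number, 49, 59 and 38 of the 78 members were higher in the Drp1 KO library of pairs 1, 2 and 3, with medians of 0.07, 0.20 and -0.01.
Past an adjusted p under 0.05 (edgeR's quasi-likelihood test, adjusted over all genes) 2 members rose, Mrpl30 and Mrpl1, or 2.56%, where 2.29% of all genes passed in this direction. No member fell, where 1.06% of all genes did, and 14 members (17.9%, against 16.4% of all genes) had an unadjusted p under 0.05 in either direction. DESeq2 called 3 higher and 1 lower (3.85% and 1.28%, against 5.05% and 3.75% of the 13119 genes to which it gave an adjusted p). In a paired fit the replicate number was a block (replicate block), a pairing that the study does not state. There 6 members rose and 2 fell, or 7.69% and 2.56%, against 6.73% and 5.22% of all genes. By another rule, an unadjusted p under 0.05 with a level more than 25% higher or more than 20% lower, 6 members counted as higher and 2 as lower (7.69% and 2.56%), against 7.19% and 5.48% of all genes. Every Drp1 KO library lay above every WT library in 12 members (15.4%, against 11.7% of all genes) and below in 6 (7.69%, against 10.3%). By each of these counts the share of members called differed from that of all genes by less than 4 percentage points. By that other rule the count changed with the setting. The higher count was 13 (16.7%) with length-scaled counts and 13 without Drp1 KO library 3, against 7.47% and 7.21% of all genes, and the lower count was 5 (6.41%) without Drp1 KO library 1 and 1 (1.28%) without WT library 2 or Drp1 KO library 3, against 7.81%, 5.31% and 4.82%. In the plot of fold changes by subunit the members form a continuous range around the medians.

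**Figure D2:**
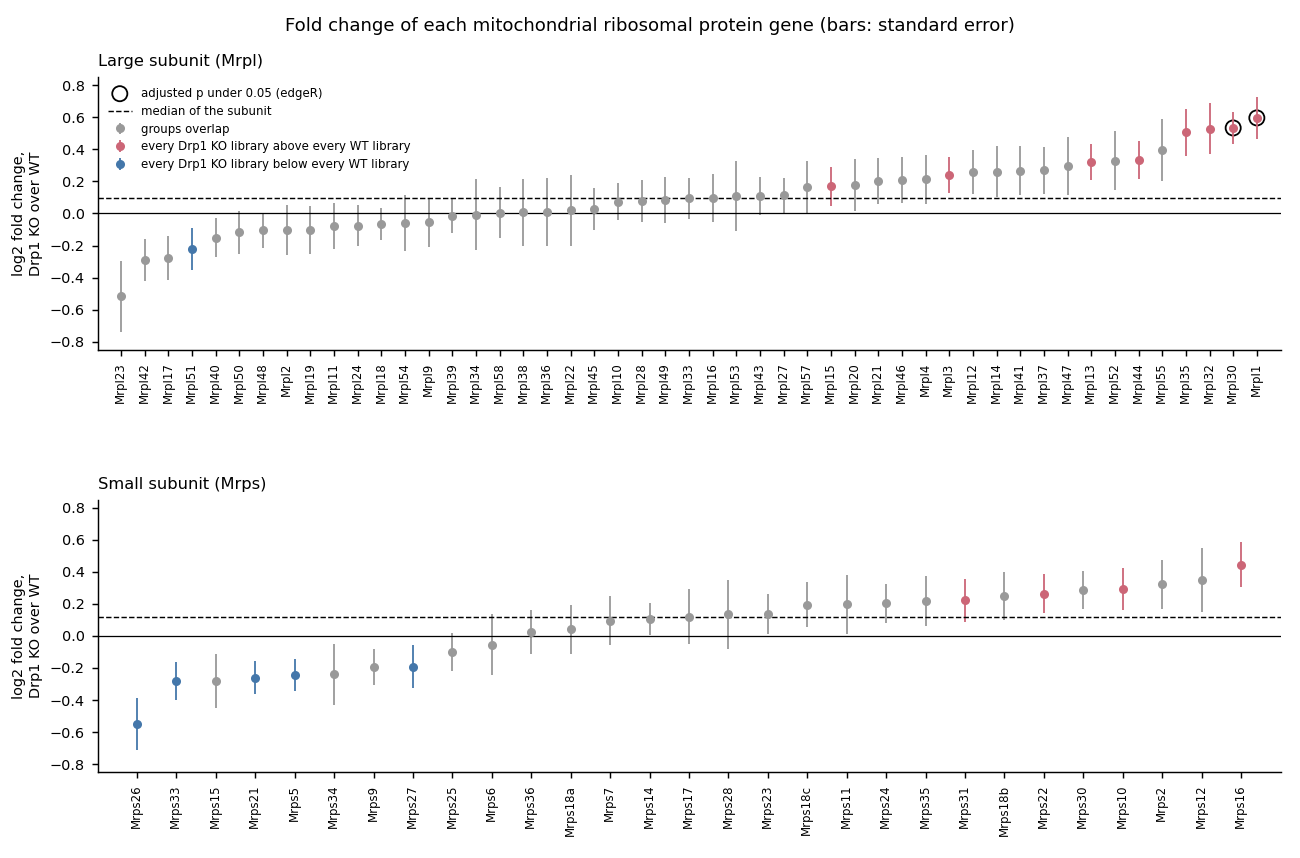
Log2 FC of each member (vertical axis, Drp1 KO over WT, error bars are SE, standard errors, n = 3 libraries per group), ordered within the large subunit above and the small subunit below, with the median of each subunit as a dashed line. Members whose libraries do not overlap are coloured, 8 higher and 1 lower in the large subunit, 4 higher and 5 lower in the small subunit, and the 2 circled members, Mrpl30 and Mrpl1, have an adjusted p under 0.05.

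Large subunit members gave both calls. Mrpl30 (ENSMUSG00000026087, chromosome 1, 37929558 to 37939816) was at 27.2, 25.4 and 26.5 CPM in WT and at 39.5, 38.9 and 36.2 CPM in Drp1 KO libraries 1 to 3. The groups lay well apart, with the lowest Drp1 KO library above the highest WT library. It rose 1.45-fold, with log2 FC 0.53 (SE 0.097, adjusted p = 0.0163, edgeR). Leaving out library 2 or 3 of WT, or library 2 of Drp1 KO, gave an adjusted p of 0.127, 0.0954 and 0.0720 (edgeR), and over the 15 other settings tried it lay between 0.000479 and 0.127.
Mrpl1 (ENSMUSG00000029486, chromosome 5, 96357146 to 96414586), whose bacterial counterpart forms the stalk at the site where spent tRNAs leave, was at 21.0, 22.1 and 21.4 CPM in WT and at 27.9, 38.8 and 30.8 CPM in Drp1 KO libraries 1 to 3. Its WT libraries were within 2 CPM of each other and its Drp1 KO libraries were more spread, all above them. It rose, with log2 FC 0.60 (SE 0.131, adjusted p = 0.0378, edgeR). The call was lost without any one library other than Drp1 KO library 1, with adjusted p of 0.0661, 0.159 and 0.154 without WT libraries 1, 2 and 3 and of 0.139 and 0.0752 without Drp1 KO libraries 2 and 3. It was also lost with library size only (0.0531) and with length-scaled counts (0.0576), with a lowest value of 0.00349 over the settings tried.

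A further 4 members did not pass edgeR's test but rose in the fit that paired libraries of the same number. Mrpl35 (chromosome 6, 71785165 to 71803953) was at 40.8, 30.9 and 27.4 CPM in WT and 44.0, 50.8 and 45.8 CPM in Drp1 KO libraries, without overlap, and WT library 1 was the WT library nearest to the Drp1 KO level. Its log2 FC was 0.51 (SE 0.145), with an adjusted p of 0.0973 (edgeR), 0.0163 when paired, 0.0389 with DESeq2, 0.0407 with length-scaled counts, 0.0278 with a minimum of 1 count and 0.0121 without WT library 1. It passed in 6 of the 15 other settings. The adjusted p (edgeR) was 0.372 and 0.354 without WT libraries 2 and 3, and 0.302 without Drp1 KO library 2.
Mrpl32, which is cut to its mature form by the m-AAA protease of the inner membrane, was at 8.93, 7.94 and 8.82 CPM in WT and 12.1, 14.7 and 10.2 CPM in Drp1 KO libraries (log2 FC 0.53, SE 0.159, adjusted p = 0.115, edgeR, and 0.0361 when paired). Only 30.4% of its counts lay on transcripts annotated as protein-coding, and on those alone its log2 FC was 0.41. Its head-to-head neighbour Psma2, a proteasome subunit, was at 0.09 (adjusted p = 0.769, edgeR). Mitd1, the neighbour of Mrpl30, was at 0.36 (adjusted p = 0.323, edgeR). Ncapd2, the neighbour of Mrpl51, was at 0.69 (adjusted p = 0.0222, edgeR), opposite in direction to Mrpl51 at -0.22.
Mrpl13 was at 24.1, 27.0 and 27.4 CPM in WT and 29.0, 35.5 and 33.7 CPM in Drp1 KO libraries (log2 FC 0.32, SE 0.114, adjusted p = 0.183, edgeR, 0.0304 when paired and 0.0476 without both libraries numbered 1). Mrps16 (chromosome 14, 20439372 to 20443713), the only small subunit member among the 4, was at 9.96, 7.94 and 9.68 CPM in WT and 12.2, 11.9 and 13.4 CPM in Drp1 KO libraries (log2 FC 0.45, SE 0.138, adjusted p = 0.128, edgeR, and 0.0245 when paired). In each of these 4 members the lowest Drp1 KO library lay above the highest WT library.
Small subunit members with separate groups that were higher but did not pass were Mrps10, Mrps22 and Mrps31, with log2 FC of 0.29, 0.26 and 0.22 (SE 0.130, 0.123 and 0.134). Large subunit members of this kind were Mrpl44, which has a fold like that of RNase III, at 14.1 ± 1.15 CPM and 17.8 ± 0.524 CPM (log2 FC 0.33, SE 0.116), Mrpl3 at 0.24 (SE 0.111) and Mrpl15 at 0.17 (SE 0.122). In Mrpl3 and Mrpl15 only 17.5% and 34.6% of the counts lay on protein-coding transcripts. The adjusted p values of the 3 were 0.174, 0.320 and 0.564 (edgeR), and none passed when paired.

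Of the 6 members that were lower in every Drp1 KO library 5 belong to the small subunit, while of all 26 members with a log2 FC below 0, 10 do. Mrps26 (ENSMUSG00000037740, chromosome 2, 130405658 to 130410616), a protein specific to mitochondria, was at 10.9, 10.98 and 9.37 CPM in WT and 7.67, 7.85 and 5.83 CPM in Drp1 KO libraries 1 to 3, so that every Drp1 KO library was lower. Its log2 FC of -0.55 (SE 0.160) had an adjusted p of 0.103 (edgeR), 0.0114 when paired and 0.0377 with DESeq2. Only 36.0% of its counts lay on protein-coding transcripts, and on those alone the log2 FC was -0.42.
Mrps21 (chromosome 3, 95766069 to 95778879), the most abundant small subunit transcript, was at 30.5, 30.3 and 32.7 CPM in WT and 28.5, 25.02 and 24.7 CPM in Drp1 KO libraries (log2 FC -0.26, SE 0.105, adjusted p = 0.249, edgeR). Mrps5, which lies at the site where mRNA enters the subunit in bacteria, was at 24.3, 25.03 and 24.6 CPM in WT and 21.8, 19.9 and 20.7 CPM in Drp1 KO libraries (log2 FC -0.25, SE 0.101). Mrps33 was at 18.9, 22.6 and 21.7 CPM and at 16.2, 18.9 and 16.9 CPM (log2 FC -0.28, SE 0.120). The libraries of the 2 genotypes did not overlap in these members, though for Mrps33 the highest Drp1 KO library nearly touched the lowest WT library. None of the 3 passed the test, paired or not, and 44.9% of the counts of Mrps5 lay on protein-coding transcripts. Mrps27 and, in the large subunit, Mrpl51 were also lower in every Drp1 KO library (log2 FC -0.19 and -0.22, SE 0.134 and 0.130). In Mrpl42 (log2 FC -0.29, SE 0.133), Mrps9 (-0.19, SE 0.112) and Mrps30 (0.29, SE 0.117) the libraries of the genotypes overlapped.

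**Figure D3:**
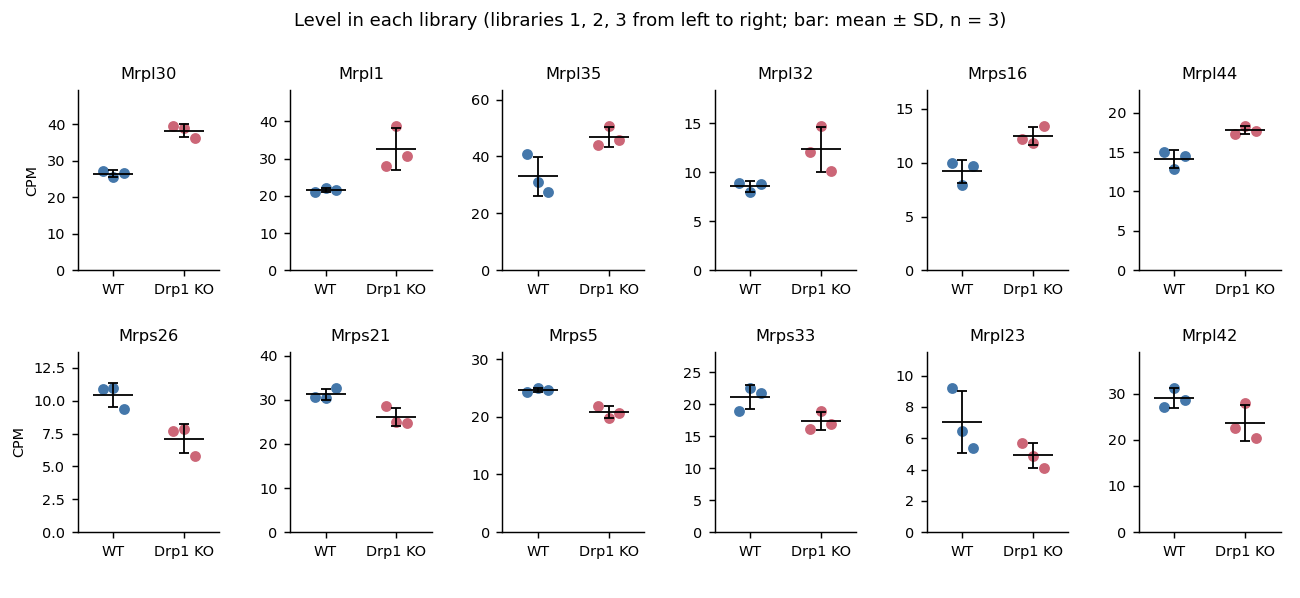
CPM (vertical axis from 0) of 12 members in each library, 6 with a higher mean in Drp1 KO BMDMs in the upper row and 6 with a lower mean in the lower row; points are libraries 1 to 3 from left to right and bars are the mean ± SD (n = 3). The groups do not overlap except in Mrpl23 and Mrpl42, and only Mrpl30 and Mrpl1 pass edgeR's test without pairing.

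The members whose names do not settle their subunit were read separately. Mrps30 and Mrps18a carry small subunit names but sit in the large subunit, and Mrps36 is a part of the 2-oxoglutarate dehydrogenase complex. Mrps30 was at 46.9, 38.0 and 37.3 CPM in WT and 51.3, 52.4 and 45.5 CPM in Drp1 KO libraries, so that Drp1 KO library 3 lay within the WT range. Mrps36 was at 14.0 ± 1.91 CPM and 14.3 ± 0.962 CPM (log2 FC 0.02, SE 0.135). The 3 paralogs Mrps18a, Mrps18b and Mrps18c had log2 FC of 0.04, 0.25 and 0.20 (SE 0.155, 0.149 and 0.138), and all 3 overlapped between genotypes. Mrpl12, the stalk protein that bacteria use to recruit translation factors, was at 9.19 ± 0.743 CPM and 11.01 ± 1.04 CPM (log2 FC 0.26, SE 0.138, adjusted p = 0.395, edgeR).

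Set side by side, the 2 subunits had like medians in edgeR's fit but differed in the number of members that were lower in every library. In the large subunit 33 of 49 members (67.3%) were higher, with a median log2 FC of 0.09 (quartiles -0.06 and 0.26). In the small subunit 19 of 29 (65.5%) were higher, with a median of 0.12 (quartiles -0.19 and 0.22). The small subunit median was 0.01 on protein-coding transcripts alone, and 0.08 and 0.07 without WT library 2 and Drp1 KO library 2, while the large subunit median was 0.05 and 0.06 without these libraries and 0.16 without Drp1 KO library 3. Between the libraries numbered 3, 13 of 29 small subunit members were higher, with a median of -0.06, and 25 of 49 large subunit members, with a median of 0.02. The groups did not overlap in 8 higher and 1 lower member of the large subunit (16.3% and 2.04%), and in 4 higher and 5 lower members of the small subunit (13.8% and 17.2%), beside 11.7% and 10.3% of all genes. The difference between the subunits in these counts was not tested. The large minus the small subunit median was -0.03 on the log2 scale and turned to 0.06 on protein-coding transcripts alone, to 0.02 without Drp1 KO library 3 and to 0.01 without both libraries numbered 1. With Mrps30 and Mrps18a moved and Mrps36 left out, the medians were 0.09 over 51 and 0.13 over 26 members. The 47 members with a bacterial counterpart had a median of 0.11 with 33 higher, and the 31 specific to mitochondria 0.03 with 19 higher, with Mrpl55 counted among the second.
The ratio of the summed TPM of the subunits differed between the genotypes more clearly than the sums did. The large subunit sum was 1444, 1371 and 1480 TPM in WT and 1514, 1546 and 1483 TPM in Drp1 KO libraries 1 to 3, and the small subunit sum was 804, 820.5 and 875 TPM and 778, 818.9 and 765.5 TPM. The large subunit sums lay apart only narrowly and the small subunit sums overlapped. In CPM both sums overlapped, at 838 ± 33.3 and 901 ± 43.3 CPM for the large subunit and 491 ± 12.4 and 499 ± 29.3 CPM for the small subunit, which was thus lower in TPM and higher in CPM in the Drp1 KO mean. The ratio of large to small was 1.80, 1.67 and 1.69 in WT and 1.95, 1.89 and 1.94 in Drp1 KO libraries, without overlap (1.72 ± 0.067 and 1.92 ± 0.031, SD, n = 3 each). The ratio was also without overlap in CPM (1.71 ± 0.050 and 1.81 ± 0.041), with Mrps30 and Mrps18a moved and Mrps36 left out (2.08 ± 0.095 and 2.31 ± 0.058), and without Mrps21 (2.18 ± 0.075 and 2.36 ± 0.056). In CPM the groups nearly touched, at 1.751 in WT library 1 and 1.760 in Drp1 KO library 1. Without Mrps21 the nearest libraries were WT library 1 at 2.264 and Drp1 KO library 2 at 2.298. Without the 4 most abundant members, Mrpl52, Mrps21, Mrpl30 and Mrpl18, the ratio was 1.61, 1.52 and 1.55 in WT and 1.56, 1.68 and 1.603 in Drp1 KO libraries, and the groups overlapped.

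**Figure D4:**
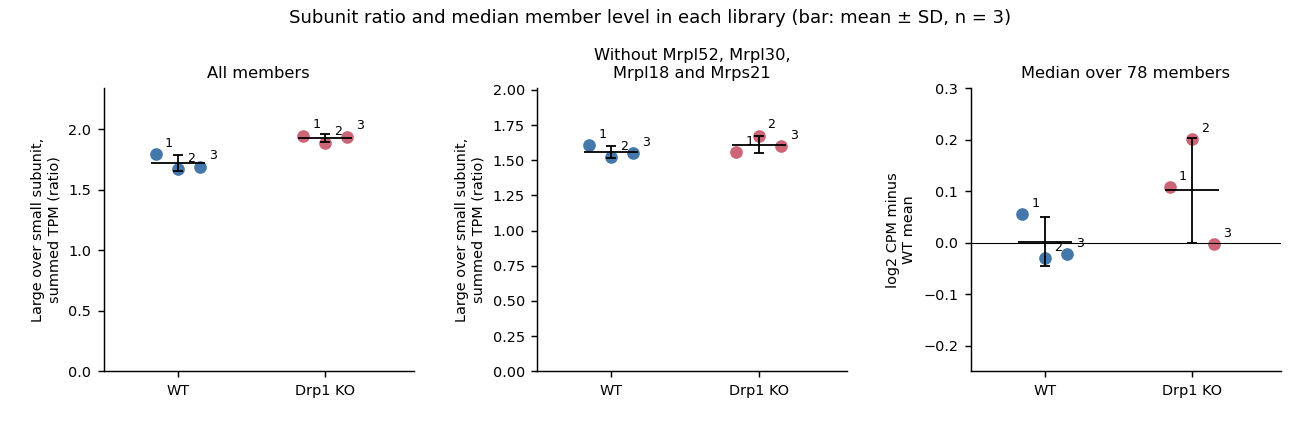
Ratio of summed TPM of the large over the small subunit in each library (left, vertical axis from 0), the same without the 4 most abundant members (middle), and the median over 78 members of log2 CPM minus the WT mean (right); numbers are library numbers and bars are the mean ± SD (n = 3). The ratios do not overlap between genotypes in the left panel and overlap in the middle one, and in the right panel Drp1 KO library 3 lies among the WT libraries.

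The deposited values are per transcript, so the transcripts of the members were read as well. The 78 genes had 342 transcripts in the tables, of which 268 reached 10 counts. By CPM, in 39 of these (14.6%) every Drp1 KO library lay above every WT library, where 9.05% of all transcripts tested did, and in 20 (7.46%) every one lay below, where 8.29% did. Among the 268, 5 had 3 counts or fewer in every WT library and more in every Drp1 KO library, and 0 the reverse. These 5, Mrpl30-207 among them, met the count minimum only with their Drp1 KO counts. Their direction was thus fixed in advance, also in the counts by p that follow. In a fit over all 62316 transcripts 1 member transcript, Mrpl30-207, had an adjusted p under 0.05 and was higher (0.373%, against 0.221% of all transcripts) and none was lower (against 0.112%), while 28 (10.4%, against 10.3% of all transcripts) had an unadjusted p under 0.05, 19 of them higher. Counts that kallisto divides between overlapping transcripts carry an uncertainty that this test does not hold, and the transcripts below were chosen after their values were seen.
Mrpl30-207 had 0 estimated counts, when rounded, in each WT library and 44, 125 and 126 in the Drp1 KO libraries. It met the count minimum only through the Drp1 KO libraries and so had to differ, and its adjusted p (0.0374, edgeR, and 0.161 when paired) adds nothing to these counts. Against a floor of 3 counts per library this was at least 28.1-fold higher. The call was lost without any one library. Mrpl30-206, a shorter transcript that starts 2456 bases downstream of the main one in the annotation, was at 48.3, 42.0 and 53.8 TPM in WT and 86.7, 85.1 and 98.1 TPM in Drp1 KO libraries (adjusted p = 0.0585, edgeR, and 0.134 when paired). The main transcript, Mrpl30-201, went the other way, at 23.6, 20.5 and 21.3 TPM and at 11.7, 15.5 and 11.5 TPM (adjusted p = 0.309, edgeR). Its share of the gene's TPM was 26.2% ± 2.70 in WT and 9.67% ± 1.65 in Drp1 KO BMDMs, and that of Mrpl30-206 was 57.3% ± 2.73 and 67.3% ± 4.04 (SD, n = 3 each). Without Mrpl30-207, the gene was still at 82.05, 77.5 and 91.3 TPM in WT and at 122.4, 120.3 and 123 TPM in Drp1 KO libraries.
Mrps21 also showed a split, between 2 transcripts that share their coding exons (261 coding bases) and start 900 bases apart. The coding intervals of Mrpl30-201 and Mrpl30-206, by contrast, differ in the annotation, with 480 and 384 coding bases. Mrps21-201, with the upstream first exon, was at 89.9, 87.5 and 94.3 TPM in WT and 49.6, 41.5 and 38.6 TPM in Drp1 KO libraries (adjusted p = 0.115, edgeR). Mrps21-202, which starts in the exon with the start codon, was at 74.0, 82.7 and 94.4 TPM and at 92.0, 101.5 and 106.7 TPM (adjusted p = 0.398, edgeR), so that Drp1 KO library 1 lay below WT library 3. Mrps21-201 made up 51.5% ± 2.36 of the gene's TPM in WT and 29.6% ± 3.91 in Drp1 KO BMDMs, with no overlap. Mrps12-203, a transcript with no defined coding sequence, was at 2.72, 3.98 and 3.59 TPM in WT and 12.1, 9.62 and 9.50 TPM in Drp1 KO libraries (adjusted p = 0.166, edgeR).

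**Figure D5:**
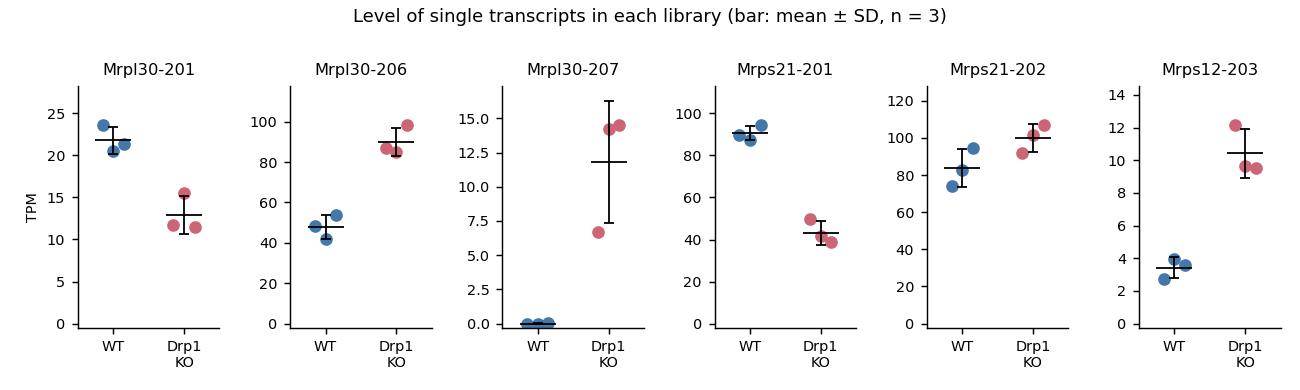
TPM (vertical axis) of 6 member transcripts in each library, with libraries 1 to 3 from left to right and bars for the mean ± SD (n = 3). Mrpl30-201 and Mrps21-201 are lower in every Drp1 KO library, Mrpl30-206, Mrpl30-207 and Mrps12-203 are higher in every one, Mrps21-202 overlaps between genotypes, and Mrpl30-207 is near 0 in WT.

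The values of Mrpl17 and Mrpl23 carry further limits. Mrpl17 was lower in CPM, at 46.3 ± 8.75 in WT and 38.1 ± 1.85 in Drp1 KO BMDMs (log2 FC -0.28, SE 0.137), and higher in TPM, at 46.1 ± 2.58 and 57.2 ± 4.09. Its longest transcript, Mrpl17-202 of 7300 bases, had 968, 965 and 776 counts in WT and 457, 870 and 824 in Drp1 KO libraries, while the short Mrpl17-204 of 459 bases was at 25.8, 25.2 and 26.3 TPM and at 38.0, 31.3 and 44.6 TPM. Its log2 FC was -0.15 without WT library 1 and -0.43 without WT library 3. With counts scaled by transcript length the log2 FC of the gene was 0.39 (adjusted p = 0.136, edgeR).
Mrpl23, which lies at the exit of the peptide tunnel in bacteria, was at 9.23, 6.45 and 5.38 CPM in WT and 5.72, 4.89 and 4.11 CPM in Drp1 KO libraries (log2 FC -0.52, SE 0.223, adjusted p = 0.281, edgeR, and 0.0417 when paired). WT library 1 was the highest, and without it the log2 FC was -0.28. Its processed copy Mrpl23-ps1 was at 5.56, 5.43 and 7.43 CPM and at 10.4, 9.62 and 9.29 CPM (log2 FC 0.66, SE 0.162, adjusted p = 0.0574, edgeR), opposite in direction. Reads of near-identical copies cannot be told apart with certainty, so the value of Mrpl23 is uncertain. Of the 78 members 38 overlap an exon of a gene on the opposite strand that is in the tables, and Mrps15, Mrps24, Mrps34 and Mrps6 overlap a protein-coding gene on their own strand. Per the labels the library kit was a stranded one, but the strand setting of the counting is not given in the sources used here, so these values may hold reads of the overlapping gene.

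Among the other genes of mitochondrial translation 1 passed the test without pairing, and its fold change was larger than that of any of the 78 members. Of 5 mitochondrial ribosome proteins with other symbols, 1 passed: Chchd1, a small subunit protein, rose from 16.1 ± 1.78 CPM to 26.0 ± 4.29 CPM (log2 FC 0.69, SE 0.146, adjusted p = 0.0322, edgeR, and 0.00116 when paired). Gadd45gip1 was at 12.8 ± 0.434 CPM and 9.63 ± 2.03 CPM (log2 FC -0.42, adjusted p = 0.237, edgeR, and 0.0498 when paired), and Dap3, Ptcd3 and Aurkaip1 overlapped between genotypes.
Of 17 mitochondrial translation factors none passed the test, paired or not, and 2 had an unadjusted p under 0.05, where 16.4% of all genes did. Of all genes 2.29% rose and 1.06% fell past the test, or 6.73% and 5.22% when paired. The 17 factors were 7 higher (41.2%, against 50.6% of all genes) and 10 lower, with a median log2 FC of -0.07. The smallest p values belonged to Lrpprc, which binds and stabilizes mitochondrial mRNAs, at 78.8 ± 2.41 CPM and 68.6 ± 0.425 CPM (-0.20, SE 0.085), and to Mtrf1l, a release factor (-0.30, SE 0.132). Slirp, the partner of Lrpprc, was at 12.3 ± 2.25 CPM and 15.7 ± 2.53 CPM (0.35, SE 0.170).
Of 25 genes for assembly of the ribosome and modification of its RNA 17 were higher (68%, against 50.6% of all genes), with a median of 0.12. None passed without pairing, and 3 had an unadjusted p under 0.05, where 16.4% of all genes did. In the paired fit 1 rose and 1 fell, where 6.73% and 5.22% of all genes did. When paired, Fastkd2, needed for the large subunit RNA, rose from 9.86 ± 0.388 CPM to 14.2 ± 2.28 CPM (adjusted p = 0.0200, edgeR, and 0.0870 without pairing), and Rbfa, a small subunit assembly factor, fell from 86.5 ± 5.10 CPM to 71.2 ± 4.69 CPM (0.0279, and 0.162 without pairing). The 83 protein genes of the cytosolic ribosome had 34 (41.0%) higher and a median log2 FC of -0.07, and 2 rose and 5 fell past an adjusted p under 0.05 (2.41% and 6.02%, against 2.29% and 1.06% of all genes, edgeR), or 9 and 19 when paired (10.8% and 22.9%, against 6.73% and 5.22%). The difference between the 2 ribosomes was not tested.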

How the data were processed

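Per the labels and the study's methods, the authors quantified paired-end reads with kallisto 0.46.1 on GRCm39 cDNA and deposited, for each of 116873 transcripts, an estimated count, not scaled between libraries, and a TPM value. Options for strand and bias are not given in the sources used here. The deposited lengths were used only with the estimated counts. By identifier 99.4% of transcripts matched the annotation, 73.5% in the same version, and transcripts without a match, with 0.542% to 0.575% of the counts of each library, were dropped. The estimated counts were summed to genes and rounded. The fit took genes with a total of 10 counts or more, with edgeR 4.0.16 in R 4.3.3 (TMM, quasi-likelihood test between the genotypes, no covariate, Benjamini-Hochberg adjustment). Standard errors were derived from the log2 FC and the F statistic. DESeq2 1.42.0 was an alternative, and the submitters' processing notes name DESeq2 1.44.0. The floor of 3 counts, 0.0916 to 0.136 CPM, covers counting error only. In simulated counts for 18127 genes, 95.5% of 200 genes changed 2-fold were recovered, with 17 false calls. Smaller changes, such as those of the members, were not simulated, so this recovery does not apply to them.

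The labels number the libraries 1 to 3 in both genotypes. Deviations from the group means correlated at 0.510, 0.204 and 0.298 between libraries of the same number, each over 0.1, and on this evidence alone, since the study does not state it, same-numbered libraries were treated as pairs. The crossed pair of WT 2 with Drp1 KO 3 had a value of 0.326, above that of each of them with its own number. With 3 libraries per group these values also depend on each other. They do not settle the pairing, so the paired adjusted p values hold only if the numbers mark true pairs. Every pair of libraries differed by more than sampling noise (chi-square per degree of freedom at least 9.502).

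Named members are those with an adjusted p under 0.05, then the smallest p values up to 8 per direction, the 3 highest and 3 lowest TPM levels of each subunit, and Mrps18a, Mrps18b, Mrps18c, Mrps30, Mrps36 and Mrpl12. Mrps10, Mrps22, Mrps31, Mrpl3, Mrpl15, Mrpl51, Mrps27, Mrps11, Mrpl46 and the transcripts were named after their values were seen. From the other lists the genes past the threshold and up to 3 more by p are named, and cytosolic ribosomal proteins are only counted. The members and lists were chosen with earlier results of these data known. Protein sequences were not used here.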

Additional observations from a re-analysis of the deposited data

How the results depend on the processing

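The median log2 fold change over all members stayed positive under all 15 other settings, from 0.05 to 0.15, with the ends reached without WT library 2 or on protein-coding transcripts alone and without Drp1 KO library 3. Among the values of the 16 members named by p, 215 kept their direction and their side of the threshold, 14 newly passed it and 10 no longer did. The count of members higher at an adjusted p under 0.05 (edgeR), 2, became 1 with library size only and ran from 0 to 2 with a library left out. It was 6 in the paired fit (replicate block), with 2 lower in place of 0, and DESeq2 gave 1 lower. Without both libraries numbered 1, a setting added after the data were seen, 5 were higher and 1 lower (6.41% and 1.28%, against 5.94% and 4.56% of all genes), and by the fold and p criteria 13 were higher and 4 lower (16.7% and 5.13%, against 9.31% and 7.99%). By those criteria the counts of 6 higher and 2 lower became 13 higher with length-scaled counts and 10 higher on protein-coding transcripts alone (16.7% and 12.8%, against 7.47% and 7.64%), and ran from 5 to 13 higher and from 1 to 5 lower with a library left out. On protein-coding transcripts alone the small subunit median was 0.012 and the large minus small difference 0.063. Mrpl17 turned to 0.39 with length-scaled counts. The transcript-level count of 1 became 0 when paired and ran from 0 to 0 with a library left out. Beyond fewer libraries in the fit or other transcripts in the sum, the cause was not tested. The count of 2 rests on thin margins at 3 libraries per group.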
